A study of Mus musculus with 9 samples.

Results

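Liver RNA levels of 9 genes that mark bile duct epithelium and the biliary progenitor-like cells of injured liver are described here: Krt7, Krt19, Sox9, Epcam, Cd24a, Prom1, Muc1, Spp1 and Cftr. They were taken by symbol from a table of 21873 genes, and each of the 9 was listed there and was above 0 in all 9 libraries. The libraries came from whole liver of male C57BL/6 mice that were 8 weeks old at the start, with 3 mice in each of 3 groups. The control group received intraperitoneal normal saline for 8 weeks. The TAA group received intraperitoneal thioacetamide (TAA), a compound that damages hepatocytes and produces liver fibrosis, at 200 mg/kg every 3 days for 8 weeks. The recovery group received the same TAA course and then had 8 further weeks without injections. Control and TAA livers were taken 72 h after the last injection. Mice of the recovery group were thus older by 8 weeks when sampled. No control of matching age was analysed here, so age and recovery cannot be told apart. The comparisons ask whether these markers rose with TAA, whether they fell after withdrawal, and whether they were back at the control level.

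Cholangiocytes line the bile ducts and form a small part of a healthy liver. During long-lasting injury the ducts proliferate and small duct-like cells spread from the portal tracts, which is called the ductular reaction. Some of these cells have been regarded as progenitors of both cholangiocytes and hepatocytes, and hepatocytes can themselves take on biliary genes such as Sox9. Several of the 9 genes are not restricted to ducts: Spp1 is also made by macrophages and stellate cells, Cd24a by neutrophils and B cells, and keratins by mesothelial cells on the liver surface.

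In the mm10 (GRCm38) assembly the 9 genes lie on 7 chromosomes, with Krt19 and Sox9 sharing chromosome 11 and Spp1 and Prom1 sharing chromosome 5. Upstream sequence is shown for 3 of them, Spp1 because it had the highest level, Epcam because it was the only one still called in recovery, and Muc1 because it was the nearest in profile to Krt7, Cftr and Sox9. Each run is the 250 bases before an annotated start from RefSeq (GRCm38.p6), on the plus strand, at chr5:104434861-104435110 for Spp1, chr17:87635729-87635978 for Epcam and chr3:89228806-89229055 for Muc1. No exon of the GENCODE M21 annotation lies in these 3 windows. Capitals mark matches to the searched motifs.
Spp1: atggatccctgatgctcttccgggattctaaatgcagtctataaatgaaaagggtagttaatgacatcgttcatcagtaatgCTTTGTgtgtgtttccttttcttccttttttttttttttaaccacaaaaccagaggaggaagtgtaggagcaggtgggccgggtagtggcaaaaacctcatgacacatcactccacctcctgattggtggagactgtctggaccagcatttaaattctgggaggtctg
Epcam: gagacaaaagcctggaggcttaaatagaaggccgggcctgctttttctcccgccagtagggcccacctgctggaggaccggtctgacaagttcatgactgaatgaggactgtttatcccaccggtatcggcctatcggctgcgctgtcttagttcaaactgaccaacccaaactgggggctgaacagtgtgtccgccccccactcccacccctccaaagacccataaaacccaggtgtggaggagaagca
Muc1: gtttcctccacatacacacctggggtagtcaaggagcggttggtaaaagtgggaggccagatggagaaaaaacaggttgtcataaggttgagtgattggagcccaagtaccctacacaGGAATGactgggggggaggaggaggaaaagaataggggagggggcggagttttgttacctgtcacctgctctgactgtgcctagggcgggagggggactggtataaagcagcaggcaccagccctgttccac
RefSeq promoter entries were matched for 6 of the 9 genes (8 starts), and those of Krt19, Sox9 and Cd24a were not analysed here. Searched on both strands were a TEAD site (GGAATG), an RBPJ site (TGGGAA), a SOX site (ACAAAG) and an AP-1 site (TGANTCA). The capitals in Spp1 are one SOX match on the opposite strand, and another SOX match lay before its second start, which is not shown. Those in Muc1 are one TEAD match. Prom1 held an AP-1 match before each of its 2 starts and an RBPJ match before 1 of them. In the windows of Epcam, Krt7 and Cftr none of these letters occurred, and no match overlapped another. Of 32851 promoters of the same length, 12.6% held GGAATG, 21.6% TGGGAA, 16.5% ACAAAG and 6.75% TGANTCA.

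The deposited values are FPKM, the fragments on a gene divided by its length in kb and by the library's mapped fragments in M (mega), and were divided here by 1 scaling factor per library. Steps between low FPKM values put library depth at an estimated 27.0 M to 40.8 M fragments. Scaling factors were 0.827 to 0.879 for control libraries, 1.29 to 1.38 for TAA libraries and 0.893 to 0.907 for recovery libraries. Hepatocyte markers were at the level of liver in every library, with albumin (Alb) at 17380 to 36660 scaled FPKM. Skeletal muscle markers summed to 35.0 in TAA mouse 3 and to at most 0.0846 in each other library. The macrophage genes Gpnmb and Trem2 were at 22.2 and 7.10 in control mouse 1, against at most 0.188 and 0.389 in the other control mice. Results are therefore also given without each mouse in turn. Whole liver cannot separate more cells of a type from more RNA per cell.

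All 9 markers rose with TAA, by 3.74-fold (Sox9) to 43.2-fold (Cftr) in the ratio of group means. After 8 weeks of recovery all 9 were lower than in the TAA group, and 8 of them passed the test. Compared with the control group, only Epcam, a cell adhesion molecule of epithelia, passed the test in recovery, where its mean was 3.64-fold higher. A gene was called when limma gave an FDR (adjusted p) under 0.05 and a fold change of at least 2 on log2(scaled FPKM + 0.1). Genes were tested at a mean FPKM of at least 0.1 over all 9 libraries, which Cftr reached only through its TAA mice. Of all 14094 genes tested, 17.0% were called higher and 8.02% lower in TAA against control, against 9 of 9 markers called higher. These shares of all genes moved with the scaling, to 31.1% higher and 2.99% lower with FPKM as deposited, 38.9% and 2.34% with TPM-like scaling and 10.9% and 9.61% with quantile normalization, and 9 of 9 markers were called higher under each. In recovery against TAA, 14.3% of genes were called lower and 7.12% higher, against 8 of 9 markers called lower. With FPKM as deposited 26.5% were lower and 2.9% higher, with TPM-like scaling 34.4% and 2.16%, beside 9 of 9 markers lower in both, and with quantile normalization 9.78% and 8.5%, beside 8 of 9. In recovery against control, 0.582% were called higher and 0.412% lower, against 1 of 9 markers called higher. The median log2 fold changes of the 9 markers were 3.52, -2.72 and 0.78 in these 3 comparisons, beside 0.02, -0.01 and 0.01 over all genes tested. Both of the first comparisons use the same 3 TAA mice, so a high TAA level enters each of them.

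**Figure D1:**
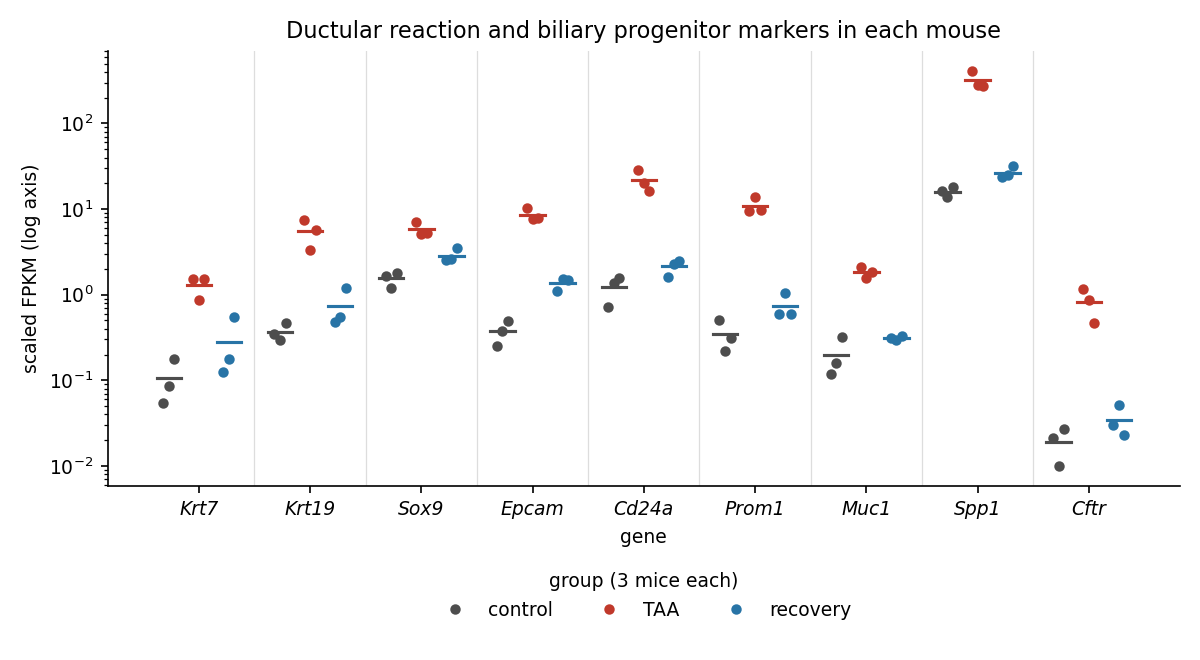
Scaled FPKM (log axis) of the 9 markers in each mouse, with points for the 3 control, 3 TAA and 3 recovery mice and a bar at each group mean. The TAA points lie above every control and recovery point of the same gene, for example 274 to 415 against 13.8 to 31.7 for Spp1.

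Krt7 and Krt19 encode the type II and type I keratins that distinguish cholangiocytes from hepatocytes. Krt7 was at 0.0542, 0.0848 and 0.177 scaled FPKM in control mice 1 to 3, at 1.51, 0.865 and 1.52 in the TAA mice and at 0.124, 0.177 and 0.543 in the recovery mice. Every TAA mouse exceeded every other mouse, while the recovery mice overlapped the control mice. Its log2 fold change was 2.77 (SE 0.31) in TAA against control (limma adjusted p = 0.000249) and -1.99 (SE 0.41) in recovery against TAA (limma adjusted p = 0.00497). Krt19 was at 0.344, 0.298 and 0.464 in the control mice, at 7.47, 3.30 and 5.72 in the TAA mice and at 0.477, 0.554 and 1.2 in the recovery mice. Here the 3 groups did not overlap, although recovery mouse 1 lay next to control mouse 3. Krt19 rose by 3.52 (SE 0.30) on the log2 scale with TAA (limma adjusted p = 7.37e-05) and its difference in recovery against TAA was -2.75 (SE 0.38, limma adjusted p = 0.000681). Against control, the recovery differences of 0.78 for Krt7 (95% interval -0.27 to 1.83, limma adjusted p = 0.339) and 0.77 for Krt19 (-0.04 to 1.57, limma adjusted p = 0.236) did not pass the test. The intervals reach from about no difference to a rise of more than 2-fold.

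Sox9 encodes a transcription factor of the developing and adult bile ducts. It was at 1.67, 1.19 and 1.80 scaled FPKM in the control mice, at 7.02, 5.06 and 5.32 in the TAA mice and at 2.54, 2.59 and 3.47 in the recovery mice. The 3 groups were separate, with the recovery mice between the others. Its rise of 1.84 on the log2 scale (SE 0.20, limma adjusted p = 0.000202) had the lowest value among the 9 markers. In recovery against TAA the difference was -0.99 (SE 0.18, limma adjusted p = 0.00238), which passed the FDR and stood just under the 2-fold limit. Without TAA mouse 2, TAA mouse 3 or recovery mouse 3 the difference was -1.08, -1.05 or -1.13 and was called, which makes 9 of 9 markers lower. Recovery against control gave 0.85 (95% interval 0.36 to 1.34), with a limma adjusted p of 0.081.

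Epcam, Cd24a, Prom1 and Muc1 encode proteins of the cell surface. Epcam was at 0.249, 0.377 and 0.50 scaled FPKM in the control mice, at 10.3, 7.65 and 7.78 in the TAA mice and at 1.1, 1.52 and 1.48 in the recovery mice. No group overlapped another, and the lowest recovery mouse was above the highest control mouse. The log2 fold changes of Epcam were 4.21 (SE 0.23, limma adjusted p = 1.19e-05) in TAA against control and -2.56 (SE 0.17, limma adjusted p = 2.84e-05) in recovery against TAA. In recovery against control it was 1.65 (95% interval 1.06 to 2.24, limma adjusted p = 0.031), higher in 3 of 3 mice. That call was lost without any 1 of the 6 mice, with log2 fold changes of 1.44 to 1.84 and limma adjusted p of 0.0543 to 0.121. The share of all genes called higher was then 0.0636% to 0.459%, against 0.582% with all 6 mice.

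Cd24a, the gene of a heavily glycosylated surface antigen, was at 0.719, 1.38 and 1.55 scaled FPKM in the control mice, at 28.4, 20.2 and 16.1 in the TAA mice and at 1.62, 2.31 and 2.49 in the recovery mice. Recovery mouse 1 was barely above control mouse 3. Cd24a differed by 4.07 (SE 0.30) in TAA against control (limma adjusted p = 4.06e-05) and by -3.26 (SE 0.23) in recovery against TAA (limma adjusted p = 3.48e-05). Prom1, the gene of the membrane glycoprotein prominin-1 (CD133), was at 0.509, 0.219 and 0.311 in the control mice, at 9.53, 13.8 and 9.66 in the TAA mice and at 0.593, 1.05 and 0.598 in the recovery mice. Its rise was the largest of the 9 on the fitted scale, at 4.67 (SE 0.26, limma adjusted p = 1.34e-05), and its difference in recovery against TAA was -3.73 (SE 0.24, limma adjusted p = 2.3e-05). Muc1, a membrane-bound mucin of apical epithelial surfaces, was at 0.118, 0.160 and 0.320 in the control mice, at 2.12, 1.58 and 1.85 in the TAA mice and at 0.312, 0.298 and 0.33 in the recovery mice. The 3 recovery values of Muc1 lay close together, and 2 of them fell below control mouse 3. Muc1 differed by 2.75 (SE 0.27, limma adjusted p = 0.000142) with TAA and by -2.23 (SE 0.17, limma adjusted p = 4.89e-05) in recovery against TAA. In recovery against control Cd24a differed by 0.81 (95% interval 0.07 to 1.54), Prom1 by 0.94 (0.18 to 1.69) and Muc1 by 0.52 (-0.11 to 1.16), with limma adjusted p of 0.185, 0.15 and 0.295, none of which passed.

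Spp1 encodes osteopontin, a secreted phosphoprotein of bile duct cells and of activated macrophages and stellate cells. It was at 16.4, 13.8 and 18.0 scaled FPKM in the control mice, at 415, 284 and 274 in the TAA mice and at 23.6, 24.7 and 31.7 in the recovery mice. The groups did not overlap. Spp1 rose by 4.31 (SE 0.18) on the log2 scale (limma adjusted p = 4.16e-06), and recovery against TAA gave -3.59 (SE 0.18, limma adjusted p = 9.56e-06). Recovery remained 1.66-fold above control in the ratio of means, with a log2 fold change of 0.73 (95% interval 0.37 to 1.08) and a limma adjusted p of 0.0581 that missed the threshold. Of the exon bases of Spp1, 309 of 1648 (18.8%) also belong to the annotated Gm42793 on the same strand, which the table does not list by that name. Krt7, Prom1 and Cftr share between 77 and 424 exon bases with annotated antisense genes, and the strand setting of the counting is not given in the sources used here.

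Cftr encodes the chloride channel through which cholangiocytes secrete fluid into bile. It was at 0.0212, 0.010 and 0.0267 scaled FPKM in the control mice, at 1.16, 0.871 and 0.466 in the TAA mice and at 0.0300, 0.0518 and 0.0228 in the recovery mice. The TAA mice stood apart, and the recovery and control mice overlapped. The control values correspond to an estimated 2 to 6 fragments per library and the recovery values to 7 to 15, against 193 to 471 with TAA, so that a small difference between control and recovery was not detectable at this depth. Log2 fold changes of Cftr were 2.89 (SE 0.32, limma adjusted p = 0.000233) in TAA against control, -2.72 (SE 0.32, limma adjusted p = 0.000329) in recovery against TAA and 0.17 (95% interval -0.23 to 0.58, limma adjusted p = 0.586) in recovery against control. Because 0.1 was added to each value, these understate the 43.2-fold ratio of the TAA mean to the control mean. Low control levels also underlie Muc1 (an estimated 6 to 22 fragments), Krt7 (9 to 36), Epcam (12 to 32) and Krt19 (14 to 25), while Spp1 rested on 602 to 860 control fragments.

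**Figure D2:**
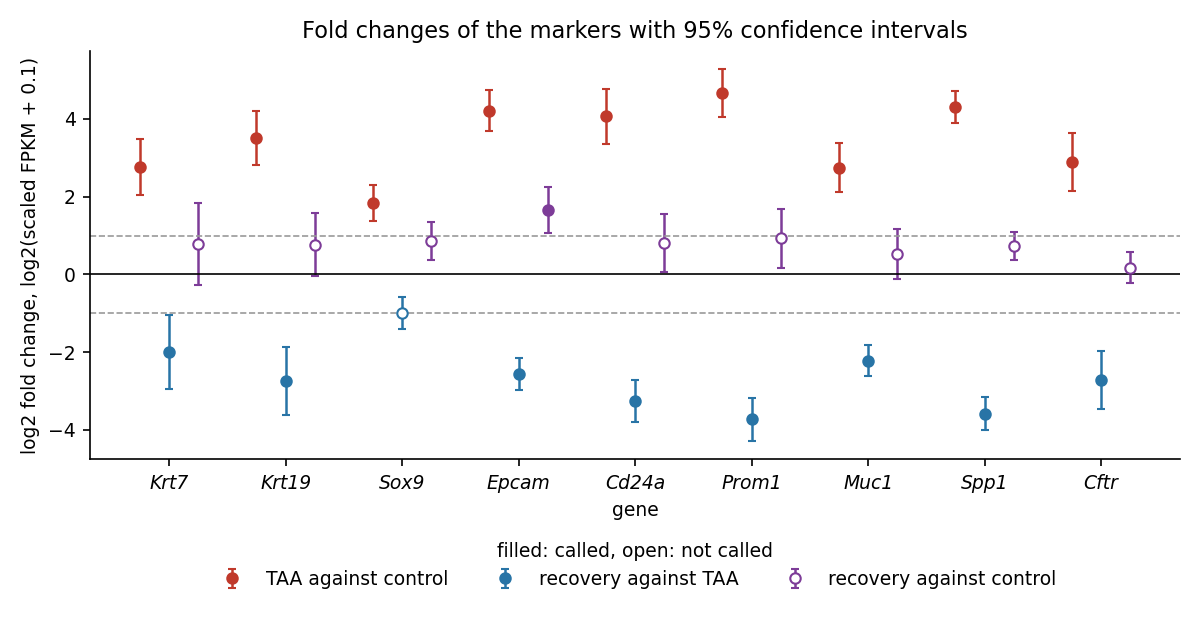
Log2 fold changes on log2(scaled FPKM + 0.1) of the 9 markers in the 3 comparisons, with bars for 95% confidence intervals, filled points for called genes and dashed lines at a 2-fold change. All TAA against control points are filled, Sox9 at -0.99 is the single open point in recovery against TAA, and Epcam at 1.65 is the single filled point in recovery against control.

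The lowest TAA mouse exceeded the highest control mouse for all 9 markers, as it did for 32.6% of all genes tested. The highest recovery mouse was below the lowest TAA mouse for all 9, as for 31.0% of genes. The lowest recovery mouse was above the highest control mouse for 6 of the 9 (Krt19, Sox9, Epcam, Cd24a, Prom1 and Spp1), as for 14.6% of genes.

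The part of the TAA rise that was still present in recovery was computed as the recovery mean above the control mean, in percent of the TAA mean above the control mean. It was 31.0% for Sox9, 14.7% for Krt7, 12.1% for Epcam, 7.29% for Krt19 and 6.9% for Muc1, which was the median of the 9. Lower values were found for Cd24a at 4.53%, Prom1 at 3.77%, Spp1 at 3.44% and Cftr at 1.92%. Sox9 was at 23.3%, 24.4% and 45.2% in the single recovery mice, and Epcam at 8.81%, 14.0% and 13.5%. The Krt7 value rested largely on recovery mouse 3, with 1.54%, 6.0% and 36.7% in mice 1 to 3, and Krt19 had 2.11%, 3.61% and 16.2%. Without recovery mouse 3 the values were 3.77% for Krt7 and 2.86% for Krt19, and the median of the 9 was 3.77%. On the log2 scale the median was 20.0%, with Sox9 at 46.2% and Epcam at 39.1%. Sox9 thus had the highest value on both scales, which is a description without a test of the difference between genes. The value is relative to the TAA rise, and that of Sox9 was the smallest of the 9 (3.74-fold). In recovery against control its log2 fold change of 0.85 was below those of Epcam (1.65) and Prom1 (0.94) and near that of Cd24a (0.81).

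**Figure D3:**
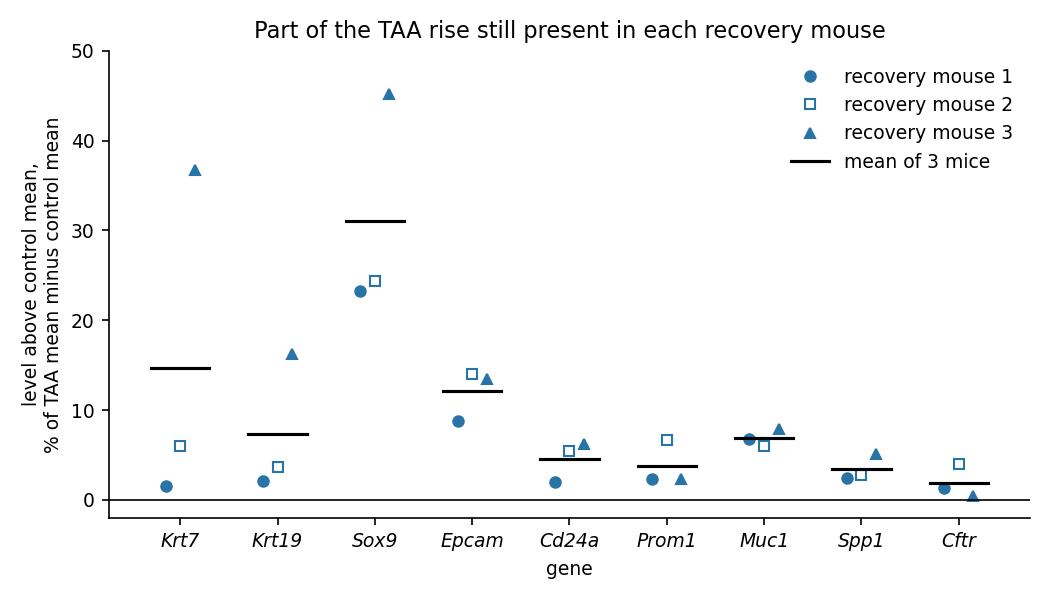
Level above the control mean in each recovery mouse, in percent of the TAA mean minus the control mean, with 1 marker shape per mouse and a black bar at the mean of 3 mice. Sox9 has the highest bar at 31.0%, and recovery mouse 3 stands above the other mice for Krt7 (36.7%) and Krt19 (16.2%).

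FPKM are per length, so the levels of the 9 genes were ordered within a group. The order and the shares below depend on the length given to each gene. Exons over all annotated transcripts came to 7049 bases for Krt7 and 2346 for Muc1. With TAA, Krt7 thus had an estimated 315 to 575 fragments against 192 to 260 for Muc1, although Muc1 ranked higher. In the TAA mice the order was Spp1, Cd24a, Prom1, Epcam, Sox9, Krt19, Muc1, Krt7 and Cftr. The ranges of Prom1 and Epcam overlapped, as did those of Sox9 and Krt19 and those of Krt7 and Cftr. Control liver had Spp1 first and then Sox9 and Cd24a, whose ranges overlapped, followed by Epcam, Krt19, Prom1, Muc1 and Krt7, each overlapping the next, and Cftr last. The recovery order was Spp1, Sox9, Cd24a, Epcam, Prom1, Krt19, Muc1, Krt7 and Cftr, where among neighbours Prom1 overlapped Krt19 and Muc1 overlapped Krt7, and the wide range of Krt19 also reached those of Epcam and Krt7. Sox9 thus followed Epcam with TAA, and came directly after Spp1 in the other groups. Spp1 made up 84.2% to 86.0% of the summed level of the 9 genes in the TAA mice, 77.8% to 81.6% in the control mice and 74.3% to 77.7% in the recovery mice. For Sox9 the share was 1.45% to 1.65% with TAA, 6.79% to 8.34% in control and 7.78% to 8.36% in recovery.

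Within each group most of the markers were highest in the same mouse, although not all of them varied alike. TAA mouse 1 had the highest level of 7 of the 9 markers, but Prom1 was highest in TAA mouse 2 and Krt7 in TAA mouse 3. Control mouse 3 was highest for 8 of 9, with Prom1 the exception. Recovery mouse 3 was highest for 6 of 9 and recovery mouse 1 lowest for 7 of 9. In recovery mouse 3, Krt7 was 3.07 times and Krt19 2.16 times the median of its group, while Sox9 was 1.34 times its group's median. The 6 mesothelial markers, which mark other keratin-bearing cells, summed to 1.17, 1.85 and 2.94 scaled FPKM in recovery mice 1 to 3, to 4.41, 2.65 and 6.66 in the TAA mice and to 1.68, 1.36 and 2.06 in the control mice. Their sum was highest in the same recovery mouse as the keratins and higher in each TAA mouse than in the control mice. Sums of macrophage, stellate cell and endothelial markers were also highest in recovery mouse 3, at 174, 149.5 and 100.6. That of neutrophil and B cell markers was highest in recovery mouse 2, at 6.48. Among TAA mice the mesothelial sum was highest in mouse 3, as was Krt7, while Krt19 was highest in mouse 1. The part of mesothelial cells in the keratin values was not tested.

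Marker lists of other cells also differed with TAA, and their part in the results of the 9 markers was not tested. Beside the counts given below, 17.0% of all genes tested were called higher and 8.02% lower in TAA against control. Of 12 hepatocyte markers, 9 were called lower in TAA against control, and the list summed to 23190 to 30340 scaled FPKM in the TAA mice against 41970 to 46410 in control and 50280 to 52640 in recovery. The gluconeogenic enzyme gene Pck1 fell by 2.53 on the log2 scale (limma adjusted p = 7.31e-06). Among 10 stellate cell and myofibroblast markers, which produce scar matrix, 8 were called higher, led by the collagen gene Col1a1 at 5.91 (limma adjusted p = 1.65e-06), with sums of 322 to 414 in the TAA mice, 79.9 to 131 in control and 110 to 150 in recovery. Macrophage markers, 4 of 10 called higher, summed to 203 to 270 with TAA, 118 to 126 in control and 125 to 174 in recovery. For neutrophil and B cell markers, which include cells that carry Cd24a, 2 of 6 tested were called higher and the 8-gene sum was 14.6 to 21.1 with TAA, 1.29 to 5.89 in control and 3.35 to 6.48 in recovery. None of 7 endothelial markers was called in TAA against control by limma, with 1 at an unadjusted p under 0.05 and sums of 58.0 to 76.8 against 52.6 to 96.0 in control. Pancreas and intestine markers, listed with other Krt19-bearing epithelium in mind, summed to 17.9 to 22.9 with TAA and 65.4 to 78.8 in control. Most of this was Fabp2, a fatty acid binding protein gene that fell by 1.92 (limma adjusted p = 3.65e-05). Fabp2 was at 57.2 to 72.4 in control and 41.2 to 61.9 in recovery, and so moved in the direction of the hepatocyte markers. The sum therefore cannot show whether other epithelium was in the sample. Of the 4 tested of these 8 genes, 2 were called lower and 1 higher, which was Vil1, the gene of the brush border protein villin, at 2.63 (SE 0.23, limma adjusted p = 8.32e-05) and 0.633 to 0.688 with TAA against 0.0106 to 0.0567 in control.

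A list of 18 other genes of biliary epithelium was read beside the 9 markers. Of the 17 that were tested, 13 were called higher in TAA against control, beside 17.0% of all genes tested, and none lower, beside 8.02%. In recovery against TAA 13 were called lower, beside 14.3% of all genes tested. The median log2 fold changes of the 17 were 2.46 and -1.81. Sctr and Ggt1, called in both comparisons, reached the filter for testing only through their TAA mice. Mmp7, a secreted protease of duct epithelium, was at 0.0233, 0.0427 and 0.254 scaled FPKM in the control mice, at 31.9, 25.4 and 22.8 in the TAA mice and at 1.24, 3.33 and 2.54 in the recovery mice. It had the largest rise of the list at 7.17 (SE 0.38, limma adjusted p = 1.14e-05), followed by the tight junction gene Cldn4 at 5.93 and the tetraspanin gene Tspan8 at 4.34. Genes that were not called included Onecut1, a transcription factor of duct development that hepatocytes also express, at 0.12, and the water channel Aqp1 and the anion exchanger Slc4a2 at 0.14 and 0.18. Aqp1 was at 37.6 to 61.3 scaled FPKM in control against 47.1 to 66.2 with TAA.

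Against control, 3 of these 17 genes were called higher in recovery, namely Mmp7 at 3.64 (SE 0.51, limma adjusted p = 0.0249), the cystic kidney disease gene homologue Bicc1 at 1.15 (SE 0.18, limma adjusted p = 0.0312) and E-cadherin (Cdh1) at 1.07 (SE 0.09, limma adjusted p = 0.00902). Cdh1 was at 4.5, 4.66 and 4.96 in the control mice and at 10.3, 9.29 and 10.4 in the recovery mice, which did not overlap. The recovery count was 0 to 2 without any 1 of the 6 mice, and 0 without recovery mouse 3. All 3 recovery mice lay above every control mouse for 11 of the 17 genes, Bicc1 and Mmp7 among them, beside 14.6% of all genes tested. By limma 10 of the 17 were at an unadjusted p under 0.05, 9 of them higher, beside 11.3% of all genes that were higher and 11.7% that were lower. The keratin gene Krt23 lay below every control mouse in all 3 recovery mice, at -0.93 (limma adjusted p = 0.0881), and was not called.

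A further list held genes linked to liver progenitor cells and to YAP, a transcriptional co-activator of duct cell growth. Of 15 tested from a list of 16, 10 were called higher in TAA against control and 8 lower in recovery against TAA. In the same comparisons and directions, 17.0% and 14.3% of all genes tested were called. Median log2 fold changes of the 15 were 1.71 and -1.01. Dlk1 and Ncam1, called in both comparisons, reached the filter for testing only through their TAA mice. Ncam1, a neural adhesion molecule found on reactive ductules, rose by 3.60 (SE 0.22, limma adjusted p = 1.99e-05). Sox4, a transcription factor that acts with Sox9 in bile duct development, rose by 3.48 (SE 0.18, limma adjusted p = 1.06e-05), and Ajuba, a YAP-linked scaffold gene, by 2.53 (SE 0.28, limma adjusted p = 0.000235). The 5 genes not called with TAA were Tnfsf12, Fgfr2, Ccn1, Amotl2 and Lgr5. Ccn1, a YAP target, was at 0.31 (SE 0.31, limma adjusted p = 0.419), and its 3 TAA mice lay within the control range. Other YAP-linked genes of the list were called higher, with Ccn2 at 1.735, Ankrd1 at 2.30 and Axl at 1.158 (limma adjusted p = 1.64e-05, 0.000376 and 0.00124). Values below 0 were found for the YAP target Amotl2 at -0.26 (limma adjusted p = 0.0436) and the Wnt-responsive receptor gene Lgr5 at -0.48 (limma adjusted p = 0.0501), which with FPKM as deposited were 0.37 and 0.13 and with TPM-like scaling 0.56 and 0.31. In recovery against TAA they were at 0.51 and 0.70 (limma adjusted p = 0.00881 and 0.032), under the 2-fold limit, and at -0.25 and -0.031 with TPM-like scaling. No gene of this list was called in recovery against control by limma, and 8 of the 15 were at an unadjusted p under 0.05, all of them higher, beside 11.3% of all genes tested that were higher at that level and 11.7% that were lower.

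**Figure D4:**
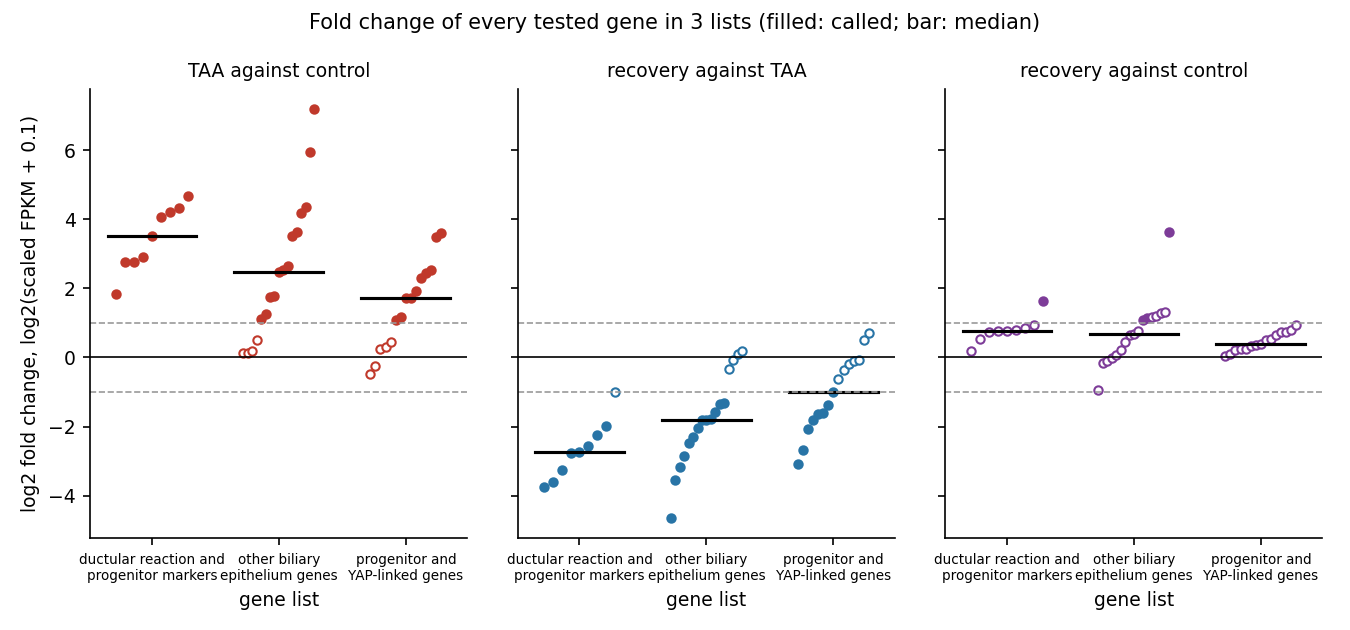
Log2 fold changes on log2(scaled FPKM + 0.1) of each tested gene in the 9 markers, the 17 other biliary genes and the 15 progenitor and YAP-linked genes, with 1 panel per comparison, bars at the median, filled points for called genes and dashed lines at a 2-fold change. Medians are 3.52, 2.46 and 1.71 in TAA against control, and Mmp7 at 3.64 is the highest point in recovery against control.

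Likeness of profiles was measured as the root mean square difference of log2(scaled FPKM + 0.1), centred on the control mean, over the 9 libraries. The closest pair among the 9 markers was Spp1 and Cd24a at 0.34, and Krt7 and Muc1 were at 0.41. Prom1 was nearest to Spp1 (0.47), Krt19 to Krt7 (0.47), Epcam to Cd24a (0.52), and Cftr and Sox9 to Muc1 (0.41 and 0.61). Sox9 and Prom1 were farthest apart at 1.68. Of the other genes tested, St14, Sox4, Pdzk1ip1, Capn6 and Lum lay closest to the mean profile of the 9, at 0.18 to 0.21. St14, which encodes the epithelial membrane protease matriptase, was at 0.256, 0.178 and 0.299 scaled FPKM in the control mice, at 4.32, 3.40 and 4.30 in the TAA mice and at 0.501, 0.463 and 0.656 in the recovery mice. Lum, the gene of the matrix proteoglycan lumican and a member of the stellate cell list, was at 2.03 to 3.76 in control, 24.3 to 40.8 with TAA and 4.67 to 6.92 in recovery. A profile over 3 groups of whole liver is shared by genes of several cell types, and this ranking is a description without a test.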

How the data were processed

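Liver RNA was sequenced by the authors as 150-base paired-end reads from an NEBNext Ultra library, 1 library per mouse. Per the labels and the study's methods, reads were mapped to mm10 (GRCm38) with HISAT2 2.2.1 and counted with featureCounts 1.5.0-p3, and the deposited values are FPKM, with no scaling between libraries and no pooling. Samples were grouped by their labels, and no column was left unmapped. Here each library was scaled by a median-of-ratios factor over the 14005 genes above 0 in all 9 libraries. The 14094 genes whose mean FPKM over all 9 libraries reached 0.1 were compared on log2(scaled FPKM + 0.1) with limma 3.58.1 in R 4.3.3 (eBayes with a trend), each comparison on its 6 libraries, with Benjamini-Hochberg adjustment over all genes tested. Cftr, Sctr, Ggt1, Dlk1 and Vil1 had control and recovery means below 0.1 and passed through their TAA values. Ncam1, with scaled means of 0.0696 in control and 0.141 in recovery, also passed only through its TAA values. With no filter, 9 of 9 markers were called higher in TAA against control, beside 13.9% of all genes. In recovery against TAA, 8 of 9 were then called lower, beside 11.7%. Genes were called at an FDR under 0.05 and a fold change of at least 2. Tables were made in Python 3.11.15 (pandas 2.3.3, numpy 2.4.6) and figures with matplotlib 3.10.9. Whole fragments were recovered for 60.1% to 68.9% of low values (within 0.05 of a whole number), so no count model was run. Estimated fragments are FPKM times exon length and estimated depth. The steps were tested on simulated data. Labels call the samples replicates, 1 mouse each in the study's methods. The 9 genes and the other lists were chosen with earlier results of these data known. From each other list the text may name the 3 largest called changes in TAA against control, the largest opposite one, the biliary and progenitor genes called in recovery against control, and the 5 genes nearest to the mean profile. Alb, Gpnmb, Trem2, Krt23, Sctr, Ggt1, Dlk1, Ccn2, Ankrd1, Axl and the biliary and progenitor genes not called were named after their values were seen. Not every gene that this rule allows is named, and some items are not reported here. Alternatives were tried for the pseudocount, filter, scaling, libraries fitted, replicate block, test and each mouse. The small RNA libraries were not used here.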

Additional observations from a re-analysis of the deposited data

How the results depend on the processing

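With 3 mice per group and low control levels of most markers, small differences between recovery and control were not detectable. All 9 markers stayed called in TAA against control under every alternative run except Cftr with a pseudocount of 1 (0.83) and the 3 markers removed by a minimum mean FPKM of 1. In recovery against TAA, that filter left 6 markers, of which 5 were called lower. Krt7 lost its call there with a pseudocount of 1 (-0.84) and with treat (limma's test against 2-fold) (adjusted p = 0.2), and Cftr with a pseudocount of 1 (-0.81). Sox9 gained its call with a pseudocount of 0.01 (-1.01), with FPKM as deposited (-1.54) and with TPM-like scaling (-1.74), where the last 2 moved the median of all genes to -0.55 and -0.74. In recovery against control, 0 markers were called with a pseudocount of 1, with no filter, with the replicate block, with treat, and without each mouse (0 to 0). In the same order, 0.284%, 0.154%, 0.0639%, 0% and 0.0636% to 0.459% of all genes tested were called higher, against 0.582% at the reported setting. Calls were thus fewer over all genes too, and with treat no gene was called higher. Epcam kept its call in the other 7 of 17 alternatives (limma adjusted p over the 17 of 0.00431 to 1.0), and at an unadjusted p under 0.05 the reported setting had 5 of 9 markers, all higher, beside 11.3% of all genes tested. Other biliary genes called higher numbered 1 with a pseudocount of 1, 1 with no filter, 0 with the replicate block, 0 with treat and 0 to 2 without each mouse. With all 9 libraries fitted together they numbered 5, beside 1.07% of all genes tested. Progenitor and YAP-linked genes called lower in recovery against TAA numbered 5 with a pseudocount of 1, 5 with that filter and 4 with treat. Cftr in recovery against control turned to -0.033 with quantile normalization (limma adjusted p = 0.943). The median part of the TAA rise left was 20.0% on the log2 scale and 3.77% to 8.14% without each mouse. Same-numbered mice did not deviate together (r of -0.07 to 0.125 across genes, and in each comparison at most 2 of 6 libraries were closest to their own number), so the replicate block, which left the marker counts at 9 and 8 in the first 2 comparisons, pairs mice by number alone.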
